A study of Mus musculus with 8 samples.

Results

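A set of 10 antibody-related genes was followed in the submandibular glands, which are salivary glands, of Dp16 and wild-type (WT) male mice. They are 5 immunoglobulin heavy chain constant genes (Igha, Ighm, Ighg1, Ighg2b and Ighg2c), 2 light chain constant genes (Igkc and Iglc2), the joining chain gene Jchain, the plasma cell chaperone gene Mzb1 and Pigr, the epithelial transporter of polymeric antibodies. The members are a named list, found by symbol in GENCODE M21 on the mouse build GRCm38, and are 10 of 54838 genes counted. All 10 were among the 19358 genes that passed the expression filter of edgeR. The members were chosen by name, with the Dp16 against WT differences of these libraries known, so the members' differences between the genotypes are given as a description of these libraries.

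Dp16 mice, a model of Down syndrome, carry B6.129S7-Dp(16Lipi-Zbtb21)1Yey/J, a duplication of the part of chromosome 16 from Lipi to Zbtb21, whose strain name includes the 129S7 background. The labels call this genotype transgenic. The WT mice are C57BL/6J, the strain that the labels also give for the Dp16 mice. Each group has 4 libraries of total RNA, depleted of ribosomal RNA, from glands trimmed of fat and connective tissue. The sources used here give no ages and do not say whether each library is 1 animal, so the p-values measure the spread between these libraries, which may be technical. No member lies in the duplicated segment (chromosome 16, 75540514 to 97962622). Iglc2 lies on the same chromosome outside it.

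Plasma cells in the connective tissue of salivary glands make mainly IgA. The joining chain links IgA or IgM units into polymers through a cysteine in the tail of the secreted heavy chain. The polymeric immunoglobulin receptor, encoded by Pigr, binds these polymers on the basal side of the gland epithelium, carries them across the cell and is cut at the apical side, so that they reach saliva as secretory antibody. IgG has no such tail and is not carried by this receptor.

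The ends of the secreted heavy chains are shown because they separate the heavy chains that bind the joining chain from those that do not. Each line gives the last 60 coding bases of the secreted transcript, stop codon included, from GENCODE M21 on GRCm38, minus strand, read 5′ to 3′. The positions are chr12:113258768-113258827 for Igha, chr12:113420867-113420926 for Ighm, chr12:113328976-113329035 for Ighg1, chr12:113306389-113306448 for Ighg2b and chr12:113287389-113287448 for Ighg2c. Capitals mark a cysteine codon next to the last amino acid codon.
Igha: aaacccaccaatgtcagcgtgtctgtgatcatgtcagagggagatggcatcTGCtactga
Ighm: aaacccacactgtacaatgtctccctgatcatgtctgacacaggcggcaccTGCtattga
Ighg1: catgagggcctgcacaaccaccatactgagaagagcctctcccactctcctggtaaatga
Ighg2b: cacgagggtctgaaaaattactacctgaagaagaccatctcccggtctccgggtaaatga
Ighg2c: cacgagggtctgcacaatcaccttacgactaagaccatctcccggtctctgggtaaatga
The cysteine codon stood in Igha and Ighm, and the 3 IgG chains had no cysteine codon in this stretch. The deposited values count reads per gene, so the secreted and membrane forms of a heavy chain are summed.

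Values per library are given in the order of replicates 1 to 4. The libraries held 90790542 to 115729892 reads in genes. The 88 protein-coding genes of the duplicated segment that were tested had a median log2 fold change (Dp16 over WT) of 0.59 as a check of the genotype labels, and 84 of them were positive. Over all 19358 genes tested the median log2 fold change was 0.01 and 51.1% were positive. Reads overlapping no counted feature made up 18.4% to 20.8% of all reads in Dp16 libraries and 13.8% to 15.9% in WT libraries, and the part of this difference in the results was not tested. Epithelial genes marked every library: the summed level of 7 epithelial markers was 715 to 1003 CPM (reads scaled to a common library size) in Dp16 glands and 710.5 to 981 CPM in WT glands.

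All 10 members had a higher fitted level in Dp16 glands than in WT glands, with a median log2 fold change of 0.99. Ighg1 was the 1 member called at an adjusted p below 0.05 by edgeR's quasi-likelihood test with Benjamini-Hochberg adjustment, where 0.625% of all genes tested were called and 0.47% were called higher in Dp16. At an unadjusted edgeR p below 0.05 there were 8 members, against 24.6% of all genes (12.7% of all genes in the higher direction). For 7 members every Dp16 library lay above every WT library, as it did for 7.11% of all genes, while 6.96% lay wholly below. Called members numbered 8 by DESeq2, which called 10.3% of all genes (5.89% higher), and 2 by limma-voom with quality weights, which called 2.05% (1.28% higher). Because these counts use the contrast from which the list was drawn, they describe the list and test nothing about it.

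**Figure D1:**
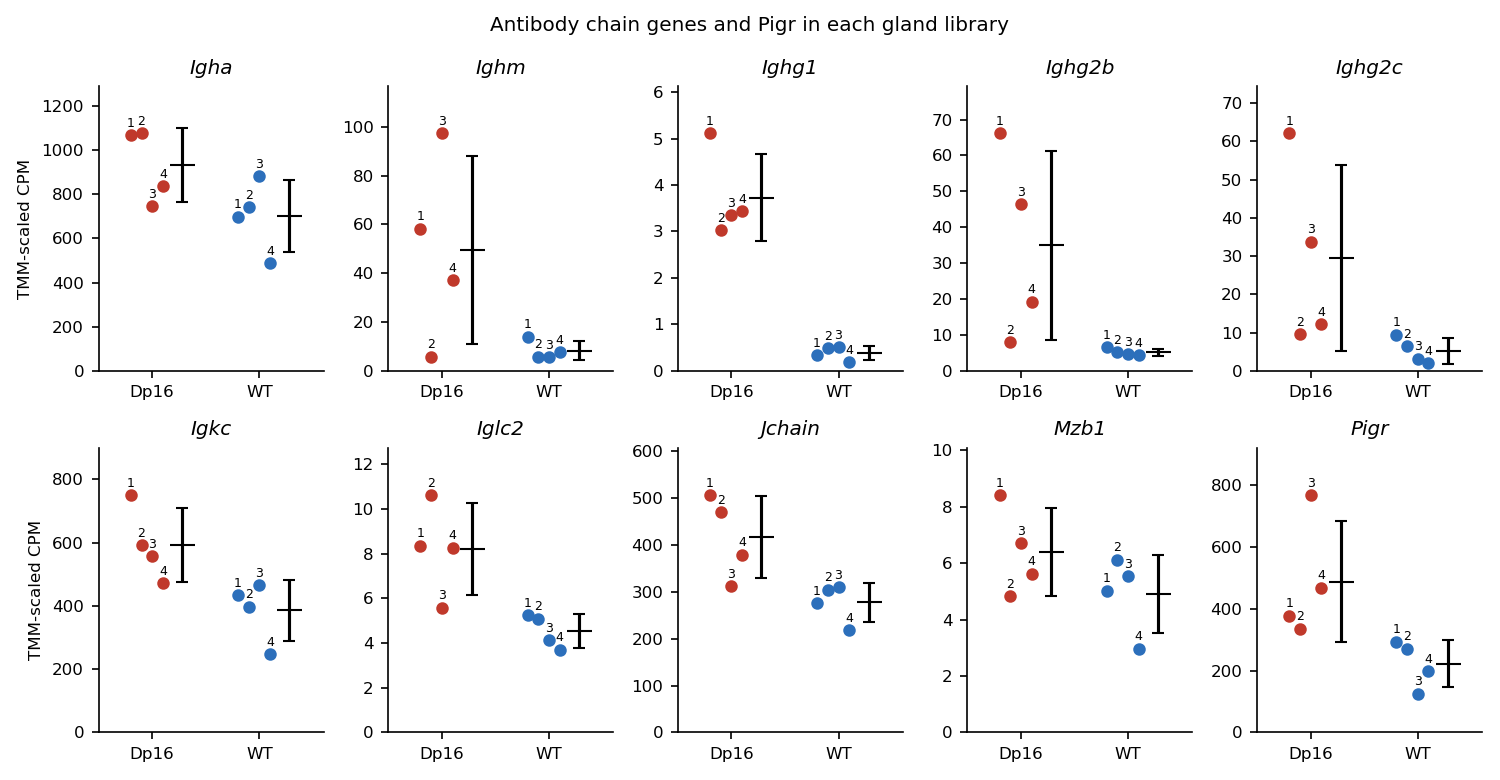
TMM-scaled CPM of the 10 members, 1 panel per gene, with each library as a numbered point and the group mean with its SD (n = 4 each) as a bar beside the points. Ighg1, Ighg2b, Ighg2c, Igkc, Iglc2, Jchain and Pigr have all 4 Dp16 libraries above all 4 WT libraries, while Igha, Ighm and Mzb1 overlap.

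Antibody heavy chain RNA as a whole was higher in every Dp16 library than in any WT library. Summed over the 8 heavy chain constant genes and expressed per kilobase of exon, the level was 507, 417, 376 and 352 CPM per kilobase in the Dp16 libraries, replicates 1 to 4, and 279, 288, 337 and 190.0 CPM per kilobase in the WT libraries. The means were 413 ± 68.2 in Dp16 and 274 ± 61.3 in WT (SD, n = 4 each), a ratio of 1.51. These genes took 0.111% ± 0.0137 of gene reads in Dp16 and 0.0675% ± 0.0123 in WT. In bulk RNA, more antibody-secreting cells and more antibody RNA per cell cannot be told apart.

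Igha (chromosome 12, 113254830 to 113260236) encodes the constant part of the IgA heavy chain and was the most abundant heavy chain per kilobase in all 8 libraries. Its level was 1068, 1075, 745 and 838 CPM in the Dp16 libraries, and 698, 741, 880.5 and 487 CPM in the WT libraries. The groups overlap: WT replicate 3 exceeded Dp16 replicates 3 and 4, and WT replicate 4 was the lowest of all. The log2 fold change was 0.41 (SE 0.19, 95% interval -0.03 to 0.85, edgeR adjusted p = 0.228), so a fold between 0.980 and 1.80 is within the interval.

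The IgG and IgM heavy chains were scarce beside Igha and had log2 fold changes above 2. Ighg1 (chromosome 12, 113325240 to 113330523) encodes the heavy chain of IgG1. It had 559, 349, 361 and 332 reads in Dp16 libraries and 33, 47, 51 and 22 reads in WT libraries, which gives 5.11, 3.02, 3.35 and 3.43 CPM in Dp16 and 0.332, 0.489, 0.506 and 0.191 CPM in WT. The means were 3.73 ± 0.937 CPM in Dp16 and 0.380 ± 0.148 CPM in WT (SD, n = 4 each), and the lowest Dp16 library stood well above the highest WT library. Ighg1 rose 9.84-fold in Dp16 glands (log2 fold change 3.30, SE 0.32, edgeR adjusted p = 0.0132). It ranked 3 by p among all genes tested. The adjusted p was 0.0641 without Dp16 replicate 1 and 0.0629 without WT replicate 2, with log2 fold changes of 3.11 and 3.44. Without either of these libraries edgeR called no gene in the whole table.

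Ighg2b (chromosome 12, 113302965 to 113307933), the IgG2b heavy chain, had 66.1, 7.97, 46.4 and 19.3 CPM in Dp16 libraries and 6.68, 5.14, 4.67 and 4.45 CPM in WT libraries. Dp16 replicates 1 and 3 were far above the rest, and Dp16 replicate 2 lay close to the highest WT library without overlap. Its log2 fold change of 2.74 (SE 0.56) had an edgeR adjusted p of 0.0609, which was 0.0234 without Dp16 replicate 2. Ighg2c (chromosome 12, 113285325 to 113288932), the IgG2c heavy chain of the C57BL/6 strain, had 62.02, 9.58, 33.8 and 12.2 CPM in Dp16 libraries and 9.49, 6.48, 3.20 and 2.03 CPM in WT libraries. The order of the Dp16 libraries was the one seen for Ighg2b, and Dp16 replicate 2 lay just above WT replicate 1. The log2 fold change of Ighg2c was 2.47 (SE 0.67, edgeR adjusted p = 0.0892), and 1.80 without Dp16 replicate 1 (adjusted p = 0.197).

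Ighg2b and Ighg2c shared 4.15% and 5.49% of their 50-base exon windows with other genes, mostly with each other, and reads from these windows can align to more than 1 gene. Ighg3, the heavy chain of IgG3 and not on the list, had 4.97, 0.451, 2.78 and 1.14 CPM in Dp16 libraries and 0.493, 0.0416, 0.0198 and 0.0347 CPM in WT libraries (edgeR log2 fold change 3.99, SE 1.04, adjusted p = 0.0846). The WT values of Ighg3 rest on 49, 4, 2 and 4 reads, so the size of its fold change is uncertain. Within the IgG genes, counted per kilobase, Ighg2c took 57.9% ± 5.62 in Dp16 and 60.9% ± 11.9 in WT, and Ighg2b took 34.1% ± 6.31 in Dp16 and 35.8% ± 11.9 in WT (SD, n = 4 each). Ighg1 took 5.72% ± 3.63 of IgG in Dp16 and 2.67% ± 1.34 in WT, and its share was highest in Dp16 replicate 2 at 10.1%, the Dp16 library with the least IgG. The make-up of IgG by subclass thus overlapped between the genotypes for Ighg2c, Ighg2b and Ighg1.

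Ighm (chromosome 12, 113418558 to 113422730) encodes the heavy chain of IgM, the class of naive B cells and the other class that the joining chain links. Its level was 58.3, 5.81, 97.3 and 37.1 CPM in Dp16 libraries and 13.97, 5.84, 5.52 and 7.67 CPM in WT libraries. Dp16 replicates 1, 3 and 4 exceeded every WT library, and Dp16 replicate 2 lay inside the WT range. The mean was 49.6 ± 38.4 CPM in Dp16 and 8.25 ± 3.93 CPM in WT (SD, n = 4 each), with a log2 fold change of 2.59 (SE 0.69) and an edgeR adjusted p of 0.0872. Without Dp16 replicate 2 these were 2.96 and an adjusted p of 0.0234. Ighd, the heavy chain that naive B cells carry beside IgM, had 0.832, 0.0173, 0.882 and 0.496 CPM in Dp16 libraries and 0.131, 0.0729, 0.0595 and 0.0868 CPM in WT libraries (edgeR log2 fold change 2.65, SE 0.83, adjusted p = 0.113). It was low in the same Dp16 library as Ighm, with 2 reads there and 6 to 13 reads in WT libraries. Ighe, the IgE heavy chain, had at most 5 reads in a library and was not tested.

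As shares of heavy chain RNA, counted per kilobase, IgA took 78.9%, 96.5%, 74.2% and 89.2% in Dp16 libraries and 93.7%, 96.5%, 97.8% and 96.1% in WT libraries. IgA was thus the main class in every gland, and its share was below all WT values in Dp16 replicates 1, 3 and 4 and at the WT level in Dp16 replicate 2. The mean share was 84.7% ± 10.1 in Dp16 and 96.0% ± 1.70 in WT (SD, n = 4 each), a difference of -11.3 percentage points, and leaving out each library in turn gave -15.3 to -7.83. The counting error was small: at 57810 to 138505 heavy chain reads a library, the widest 95% Wilson interval of the share of Igha in those reads reached 0.247 points to either side, counting error only.

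IgG took 14.9%, 2.77%, 12.01% and 5.16% of heavy chain RNA in Dp16 libraries and 3.57%, 2.44%, 1.29% and 1.73% in WT libraries. The IgG share of Dp16 replicate 2 lay inside the WT range, and the other Dp16 libraries lay above it. IgM took 6.09%, 0.739%, 13.7% and 5.58% in Dp16 libraries and 2.65%, 1.08%, 0.868% and 2.14% in WT libraries. IgM exceeded IgG in Dp16 replicates 3 and 4 and in WT replicate 4, and Dp16 replicate 2 had the lowest IgM share of all 8 libraries. The summed level of IgG, as against its share, did not overlap between the groups, at 11.5 to 75.4 CPM per kilobase in Dp16 and 3.28 to 9.98 in WT.

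**Figure D2:**
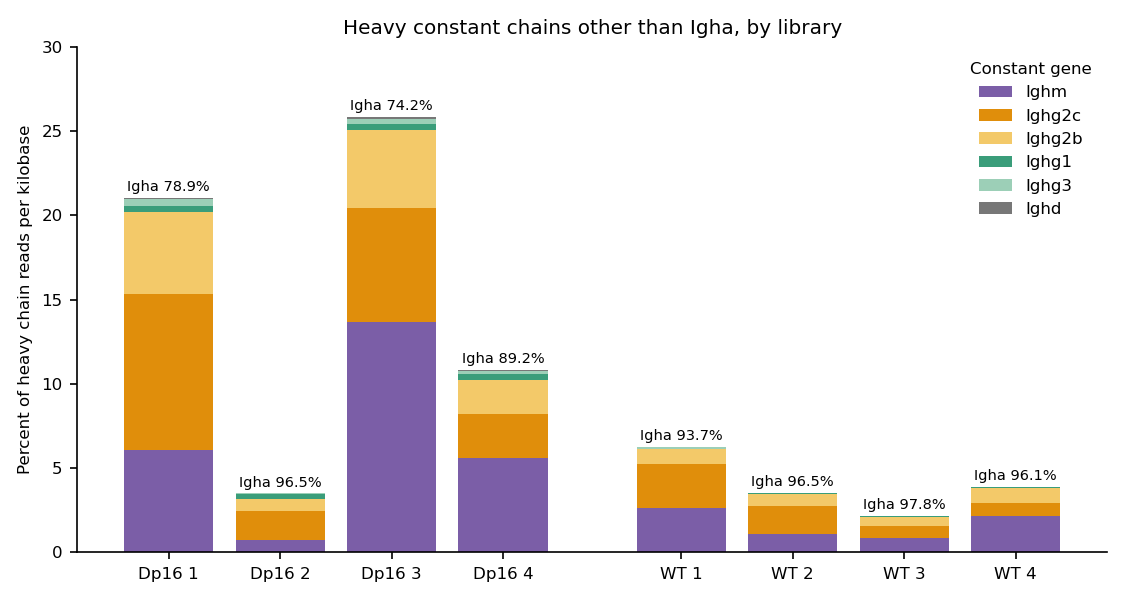
Stacked shares (percent of heavy chain reads per kilobase) of the constant genes other than Igha in each library, with the share of Igha printed above each bar. Igha takes 74.2% to 96.5% in Dp16 libraries and 93.7% to 97.8% in WT libraries, with Dp16 replicate 2 at the WT level.

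Light chain RNA was mostly kappa. Igkc (chromosome 6, 70726435 to 70726966), the only kappa constant gene, had 750.5, 591, 557 and 472 CPM in Dp16 libraries and 434, 398, 465 and 247 CPM in WT libraries. The groups did not overlap, although Dp16 replicate 4 and WT replicate 3 were close. The log2 fold change was 0.62 (SE 0.21, edgeR adjusted p = 0.130). Per kilobase, Igkc stood to the summed heavy chains at 2.69 ± 0.125 in Dp16 and 2.64 ± 0.202 in WT (SD, n = 4 each). The ratio of light to heavy chain RNA overlapped between the genotypes.

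Iglc2 (chromosome 16, 19198396 to 19200351), a lambda constant gene, had 8.36, 10.6, 5.58 and 8.27 CPM in Dp16 libraries and 5.26, 5.09, 4.12 and 3.70 CPM in WT libraries. Each Dp16 library lay above each WT library, the closest pair being Dp16 replicate 3 and WT replicate 1. The log2 fold change was 0.85 (SE 0.20, edgeR adjusted p = 0.0710). Its neighbour Iglc3, not on the list, had 2.13 to 2.86 CPM in Dp16 libraries and 1.12 to 1.24 CPM in WT libraries and was called higher in Dp16 (edgeR log2 fold change 1.05, SE 0.15, adjusted p = 0.0276). Iglc2 and Iglc3 shared 7.65% and 10.7% of their 50-base windows, all with each other, so the counts of both are uncertain there.

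Iglc1, a further lambda constant gene, did not share this direction. It had 18.7, 6.83, 16.7 and 24.7 CPM in Dp16 libraries and 16.8, 3.33, 61.5 and 25.2 CPM in WT libraries, a log2 fold change of -0.68 (SE 0.70, edgeR adjusted p = 0.566). The lambda genes together took 4.10%, 3.28%, 4.61% and 7.72% of light chain RNA per kilobase in Dp16 libraries and 5.57%, 2.38%, 14.2% and 12.2% in WT libraries. The lambda share ranged more widely among WT libraries than among Dp16 libraries, and the groups overlapped. WT replicate 3, which had the most Iglc1, also had 104 CPM of Muc19, a mucin of the neighbouring sublingual gland, against 0.265 to 13.2 CPM in the other libraries; the part of sublingual tissue in its lambda share was not tested.

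Jchain (chromosome 5, 88519809 to 88527891) had 507, 470.3, 312 and 379.7 CPM in Dp16 libraries and 276, 305, 310.2 and 219 CPM in WT libraries. Dp16 replicate 3 was nearly level with WT replicates 2 and 3, and the groups did not overlap. The log2 fold change was 0.59 (SE 0.17, 95% interval 0.20 to 0.97, edgeR adjusted p = 0.101). Set against the heavy chains that it links, Jchain per kilobase stood to the sum of Igha and Ighm at 0.467, 0.460, 0.375 and 0.452 in Dp16 libraries and 0.407, 0.432, 0.370 and 0.466 in WT libraries. This ratio covered almost the same range in both genotypes, with a difference between means of 0.02. That difference was 0.0412 without Dp16 replicate 3 and 0.00384 without WT replicate 3.

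Mzb1 (chromosome 18, 35647267 to 35649367), a chaperone of the endoplasmic reticulum of B cells and plasma cells, had 8.42, 4.82, 6.70 and 5.63 CPM in Dp16 libraries and 5.02, 6.12, 5.54 and 2.97 CPM in WT libraries. The groups overlapped, with Dp16 replicate 2 below 3 WT libraries. Its log2 fold change of 0.38 (SE 0.24, 95% interval -0.16 to 0.92) had an edgeR adjusted p of 0.347, the highest of the 10 members. Mzb1 shared 53.5% of its exon windows with SPATA24, an overlapping protein-coding gene on the same strand that is not among the genes counted. The level of Mzb1 may therefore include reads of SPATA24, and their part was not tested.

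Pigr (chromosome 1, 130826684 to 130852249) is made by the epithelium and not by plasma cells. Its level was 378, 337, 769 and 469 CPM in Dp16 libraries and 295, 271, 126 and 199 CPM in WT libraries. The groups did not overlap, Dp16 replicate 3 being the highest and WT replicate 3 the lowest. The log2 fold change was 1.13 (SE 0.32, 95% interval 0.42 to 1.85), a fold of 2.19, with an edgeR adjusted p of 0.0943. It was 0.83 without Dp16 replicate 3 (edgeR adjusted p = 0.183) and 0.92 without WT replicate 3 (edgeR adjusted p = 0.168). Relative to 4 other epithelial genes (Epcam, Cdh1, Krt8 and Krt18), the log2 CPM of Pigr stood at 1.44, 0.71, 2.35 and 1.61 in Dp16 libraries and 1.03, 0.63, -0.32 and -0.07 in WT libraries. On that scale Dp16 replicate 2 fell inside the WT range, and the difference between means was 1.21. Epcam itself averaged 176 ± 19.7 CPM in Dp16 and 189 ± 11.3 CPM in WT (SD, n = 4 each). Of the 7 epithelial markers 3 were positive and none was called by edgeR (median log2 fold change -0.05). Krt19, a marker outside the 4 genes used here, averaged 22.8 ± 15.6 CPM in Dp16 and 11.9 ± 4.94 CPM in WT. Its log2 fold change was 0.94 (SE 0.44, edgeR adjusted p = 0.223), so the scale depends on the epithelial genes used. Of 6 acinar cell markers tested none had a positive fold change (median log2 fold change -0.75). None was called by edgeR and 2 were called by DESeq2, which called 10.3% of all genes. For Dcpp1 and Dcpp2 the negative values rest on WT replicate 3, with 22.3 and 70.8 CPM. The other WT libraries had 0.382 to 0.666 CPM of Dcpp1 and 0.104 to 0.967 CPM of Dcpp2. Dp16 libraries had 0.347 to 2.55 and 0.0640 to 4.75 CPM. WT replicate 3 also had the most Muc19, a sublingual mucin (104 CPM). Aqp5, the acinar water channel, averaged 66.6 ± 12.9 CPM in Dp16 and 106 ± 7.96 CPM in WT (edgeR adjusted p = 0.0589). Of 5 granular duct markers Klk1, a kallikrein, was called lower in Dp16 (edgeR log2 fold change -0.70, SE 0.11, adjusted p = 0.0358). The part of these shifts, or of sublingual tissue, in the level of Pigr was not tested.

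Pigr and the antibody chains did not rank the Dp16 libraries alike. Pigr was highest in Dp16 replicate 3, the Dp16 library with the least Igha and Jchain, and Igha and Jchain were highest in Dp16 replicates 1 and 2. Per kilobase, Pigr stood to Jchain at 0.466, 0.448, 1.54 and 0.773 in Dp16 libraries and 0.668, 0.556, 0.254 and 0.570 in WT libraries. The ratio overlapped between the genotypes, and replicate 3 held the highest value in Dp16 and the lowest in WT.

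**Figure D3:**
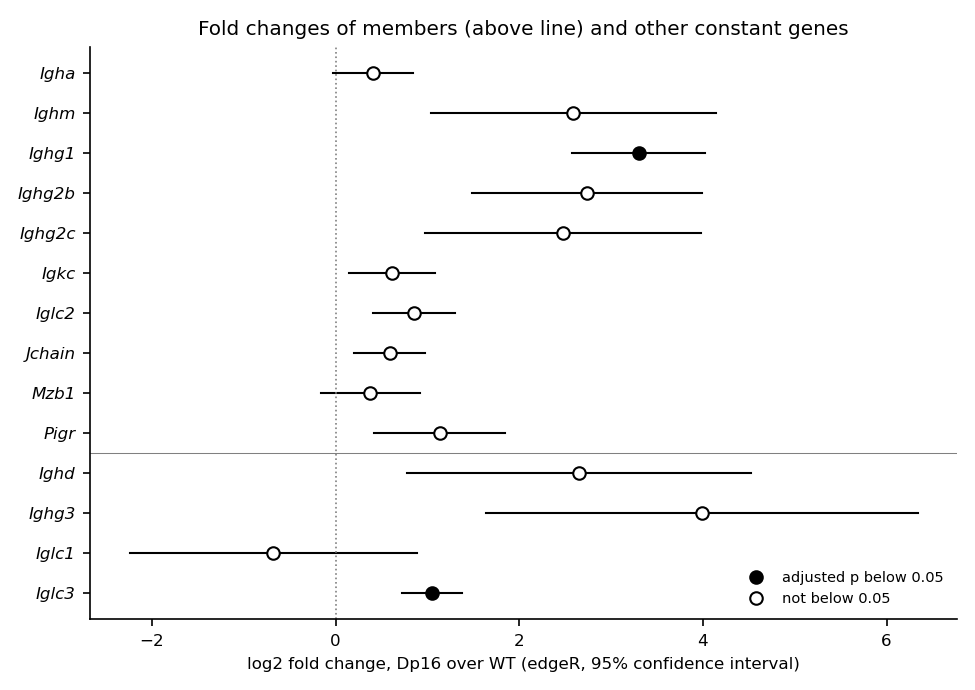
Log2 fold change (Dp16 over WT, edgeR) with its 95% confidence interval for each member, above the line, and for 4 other constant genes, below it. Filled points have an adjusted p below 0.05, Ighg1 at 3.30 and Iglc3 at 1.05, and the intervals of Igha, Mzb1 and Iglc1 include 0.

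The region before the start of Pigr is shown because interferon and tumour necrosis factor are known to induce the gene in human epithelial cell lines. RefSeq promoters (GRCm38.p6) matched 2 of the members, Pigr and Jchain. The 250 bases before the Pigr start, chr1:130826434-130826683, plus strand, follow, with matches to a kappaB core (GGG, any 5 bases, CC) in capitals.
Pigr: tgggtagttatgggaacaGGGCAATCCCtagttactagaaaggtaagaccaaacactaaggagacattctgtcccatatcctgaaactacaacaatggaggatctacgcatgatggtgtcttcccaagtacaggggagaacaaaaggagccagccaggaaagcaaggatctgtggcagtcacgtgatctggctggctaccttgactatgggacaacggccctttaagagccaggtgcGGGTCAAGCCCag
Both stretches match on either strand, the second through matches that overlap. Of 32851 promoters of the same length, from 250 bases before to 50 bases after the start, 50.8% hold these letters. A match to TTCNNNGAA, the gamma-activated element, began 39 bases after the Pigr start as TTCCTGGAA, and 8.30% of promoters hold one. The octamer ATGCAAAT (1.74% of promoters) and an interferon element of GAAA, any 2 bases and GAAA (3.44%), were not in this window of Pigr. None of the 4 motifs, searched on both strands, was in that of Jchain. A match describes letters and not a binding site.

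Known inducers of Pigr and their transcription factors gave 8 positive fold changes among 11 of 13 genes tested, with a median log2 fold change of 0.13. None was called by edgeR, 3 had an unadjusted p below 0.05, and 3 were called by DESeq2. Over all genes these shares were 0.625%, 24.6% and 10.3%. Irf1, an interferon-induced transcription factor, had 20.8, 14.9, 24.9 and 15.5 CPM in Dp16 libraries and 11.2, 14.1, 12.4 and 13.6 CPM in WT libraries (edgeR adjusted p = 0.103). It was highest in Dp16 replicate 3, the library with the most Pigr, and the groups did not overlap. Tnf had a log2 fold change of 1.63 (SE 0.53, edgeR adjusted p = 0.120), Ifng had 1 to 23 reads and was not tested, and Il17a had no read in any library. Of 7 genes of vesicle transport across epithelium 2 were positive and none was called by edgeR (2 with an unadjusted p below 0.05, none called by DESeq2). Their median was -0.07. Rab11a, of recycling endosomes, had -0.22 (adjusted p = 0.105) and Rab17, a regulator of transcytosis, 0.30 (adjusted p = 0.182) on the log2 scale.

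Variable (V) genes are outside the list, but they are transcribed in 1 RNA with the constant genes, so their levels are not a separate measure of the members. V genes encode the antigen-binding parts of antibodies, and a few expanded plasma cell clones would place many reads on few of them. Many V genes are near copies of each other, so counts of single V genes are uncertain. Heavy chain V genes summed to 262 to 399 CPM in Dp16 libraries and 174 to 250 CPM in WT libraries, and kappa V genes to 430 to 654 CPM in Dp16 and 298 to 438 CPM in WT. The heavy chain sums did not overlap, and the kappa sums overlapped. Positive log2 fold changes were seen for 70 of 96 heavy V genes (median 0.52) and for 67 of 84 kappa V genes (median 0.71), against 51.1% of all genes tested. An unadjusted edgeR p below 0.05 was found for 20.8% of heavy and 31.0% of kappa V genes, against 24.6% of all genes. In the higher direction alone it was found for 17 of 96 heavy and 24 of 84 kappa V genes, against 12.7% of all genes. In each family 1 gene was called by edgeR, which called 0.625% of all genes tested. Ighv5-9-1 rose to 4.85 ± 0.579 CPM in Dp16, against 2.19 ± 0.559 CPM in WT (log2 fold change 1.148, SE 0.20, adjusted p = 0.0450). Igkv19-93 rose to 16.1 ± 4.10 CPM in Dp16, against 6.06 ± 1.603 CPM in WT (log2 fold change 1.40, SE 0.23, adjusted p = 0.0388). None of the 3 lambda V genes was called by edgeR, and 1 had an unadjusted p below 0.05. Wholly higher in Dp16 were 5 heavy V genes (5.21%) and 7 kappa V genes (8.33%), shares near the 7.11% of all genes tested, and 1 heavy V gene and no kappa V gene lay wholly lower.

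The evenness of V gene use, given as the inverse Simpson index (the number of equally used V genes that would give the same concentration), was 38.6, 32.3, 19.95 and 37.2 for heavy V genes in Dp16 libraries and 45.6, 38.7, 43.0 and 23.2 in WT libraries. Each group held 1 library with more concentrated use, Dp16 replicate 3 and WT replicate 4. The difference between means was -5.61 (two-sided exact permutation p = 0.429 over 35 distinct splits, 0.657 after Benjamini-Hochberg adjustment over 2 tests). It was -1.59 without Dp16 replicate 3 and -10.4 without WT replicate 4 (exact permutation p = 0.886 and 0.114). For kappa V genes the index was 34.5, 46.0, 36.6 and 24.6 in Dp16 libraries and 42.1, 26.3, 32.6 and 31.1 in WT libraries, a difference of 2.42 (exact permutation p = 0.657, adjusted 0.657). The smallest p that 4 against 4 libraries can give is 0.0286. A difference in evenness was thus not detected, and these p-values do not show that the genotypes use V genes alike.

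The most-read V gene differed from library to library. Among heavy V genes it was Ighv5-6, Ighv2-2, Ighv5-6 and Ighv1-72 in Dp16 libraries, with 8.001%, 7.82%, 18.6% and 5.89% of heavy V reads. In WT libraries it was Ighv3-6, Ighv5-6, Ighv2-5 and Ighv6-6, with 7.48%, 6.62%, 7.45% and 12.2%. So 6 different heavy V genes led in 8 libraries, and Ighv5-6 led in libraries of both genotypes. Some of these leaders were rare elsewhere: Ighv1-72 held 0.0415% to 2.73% in the libraries other than Dp16 replicate 4, and Ighv2-5 held 0.163% to 1.24% in those other than WT replicate 3. For kappa, 7 different V genes led, with 4.22% to 14.7% of kappa V reads in Dp16 libraries and 5.78% to 11.8% in WT libraries, the highest being Igkv8-21 in Dp16 replicate 4. The lambda V gene Iglv1 led in all 8 libraries with 66.2% to 90.8% of lambda V reads in Dp16 and 78.8% to 94.2% in WT.

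**Figure D4:**
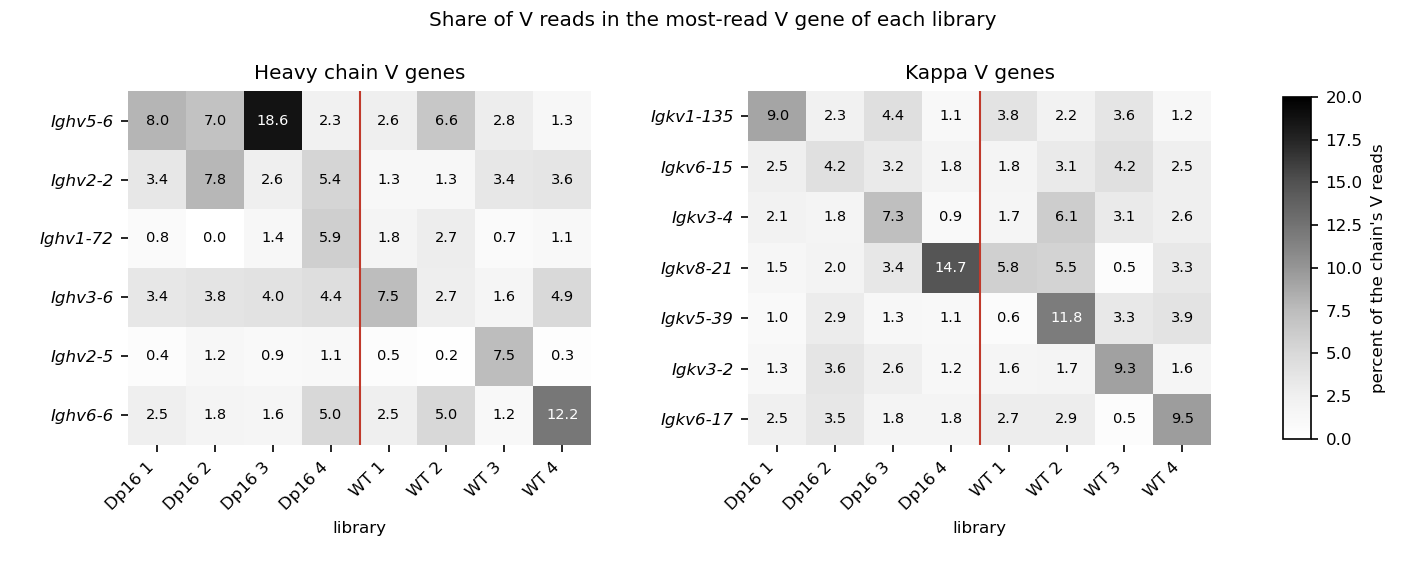
Share of V reads (percent, in grey scale and as numbers) of each heavy chain and kappa V gene that was the most read in at least 1 library, Dp16 libraries left of the line and WT libraries right of it. The leading gene changes between libraries of the same genotype, and the highest heavy chain share is 18.6% for Ighv5-6 in Dp16 replicate 3.

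Other genes of plasma cells had fold changes of both signs. Of 13 such genes 9 were positive, and the median was 0.23 on the log2 scale. None was called by edgeR, 6 had an unadjusted p below 0.05, and DESeq2 called 5 higher. Over all genes these shares were 0.625%, 24.6% and 5.89%. Slamf7, a surface receptor of plasma cells, had 5.26, 3.55, 5.48 and 4.41 CPM in Dp16 libraries and 2.73, 2.64, 2.82 and 1.99 CPM in WT libraries (edgeR log2 fold change 0.88, adjusted p = 0.0589). Irf4, a transcription factor needed for plasma cells, averaged 8.65 ± 2.26 CPM in Dp16 and 4.77 ± 0.961 CPM in WT (0.86, adjusted p = 0.0778). Prdm1, which encodes Blimp-1, the repressor that ends the B cell programme, averaged 3.47 ± 0.516 CPM in Dp16 and 2.09 ± 0.487 CPM in WT (0.73, adjusted p = 0.0856). These 3, which have the smallest p of the list, did not overlap between the genotypes. Of the 13 genes 4 lay wholly higher in Dp16, as did 7.11% of all genes tested. Xbp1, a driver of secretory capacity that acinar cells also make, had a log2 fold change of 0.06 (edgeR adjusted p = 0.746). Derl3, of protein degradation at the endoplasmic reticulum, had -0.77 (edgeR adjusted p = 0.268). The other negative genes were Sdc1, Fkbp11 and Ell2. Sdc1, Derl3, Fkbp11 and Ell2 averaged 10.6, 119, 49.4 and 175 CPM in WT, above the 4.77 CPM of Irf4 and 2.09 CPM of Prdm1. The part of other gland cells in these levels was not tested.

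Genes of homing, of survival and of antibody binding made up 3 further lists. Over all genes edgeR called 0.625%, 24.6% had an unadjusted edgeR p below 0.05, and DESeq2 called 10.3% (5.89% higher). Of 12 homing and retention genes 11 were tested and 7 were positive (median log2 fold change 0.37), none called by edgeR, 4 with an unadjusted p below 0.05, and 2 called higher by DESeq2. Itga4 and Itgb7, which form the integrin of mucosal lymphocytes, had log2 fold changes of 1.10 (adjusted p = 0.0733) and 0.97 (adjusted p = 0.0666). Ccl28, the chemokine that salivary epithelium makes for IgA plasma cells, averaged lower in Dp16, with 29.5 to 69.2 CPM in Dp16 libraries and 41.1 to 66.7 CPM in WT libraries (log2 fold change -0.29, adjusted p = 0.501). For class switching, T cell help and survival 6 of 13 genes were tested, and all 6 were positive (median 0.78), none called by edgeR, 4 with an unadjusted p below 0.05, and 3 called by DESeq2. Tnfrsf13b, a receptor for the survival factors BAFF and APRIL, had 3.48, 3.03, 4.07 and 2.91 CPM in Dp16 libraries and 1.85, 2.11, 2.15 and 1.32 CPM in WT libraries (adjusted p = 0.0677). Tnfsf13b, which encodes BAFF, averaged 1.74 ± 0.540 CPM in Dp16 and 1.07 ± 0.201 CPM in WT (adjusted p = 0.144). All 10 Fc and antibody receptor genes tested, of 11, were positive (median 0.38). None was called by edgeR, 4 had an unadjusted p below 0.05, and 2 were called by DESeq2. This list includes Cd79a and Cd79b, its genes with the smallest p, which are also counted among the B cell markers.

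Markers of other lymphocytes moved with IgM and IgG across the Dp16 libraries. The summed level of 11 B cell markers was 17.7, 4.79, 17.0 and 9.14 CPM in Dp16 libraries and 5.38, 4.47, 3.75 and 3.38 CPM in WT libraries, and that of 8 T cell markers was 15.2, 5.29, 27.99 and 11.9 CPM in Dp16 libraries and 4.85, 4.33, 3.39 and 2.92 CPM in WT libraries. Dp16 replicate 2, low in Ighm, Ighg2b, Ighg2c and Ighd, was also the Dp16 library lowest in both sums. All 9 B cell markers tested (median log2 fold change 2.29) and all 8 T cell markers (median 2.19) were positive. None was called by edgeR, while 8 in each list had an unadjusted p below 0.05 and DESeq2 called 7 of 10 and 8 of 8. Over all genes these shares were 0.625%, 24.6% and 10.3%.

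Lymph nodes lie beside this gland. The summed level of 10 lymph node markers was 6.76, 1.92, 22.2 and 4.69 CPM in Dp16 libraries and 8.67, 2.33, 2.46 and 3.39 CPM in WT libraries, highest in Dp16 replicate 3. Of these markers 4 were tested and all 4 were positive, none called by edgeR (2 with an unadjusted p below 0.05, and 2 called by DESeq2), with a median log2 fold change of 1.38. In Dp16 replicate 3 and WT replicate 1 most of that sum was Cxcl13, a B cell chemokine, with 17.7 CPM and 7.58 CPM. Glycam1, a defining gene of lymph node vessels, had 5 and 4 reads in Dp16 replicates 1 and 3 and no read in the other libraries, and Ccl19, made by lymph node stroma, had none in any. The part of lymphocytes or lymph node tissue in the levels of the IgM and IgG genes was not tested.

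**Figure D5:**
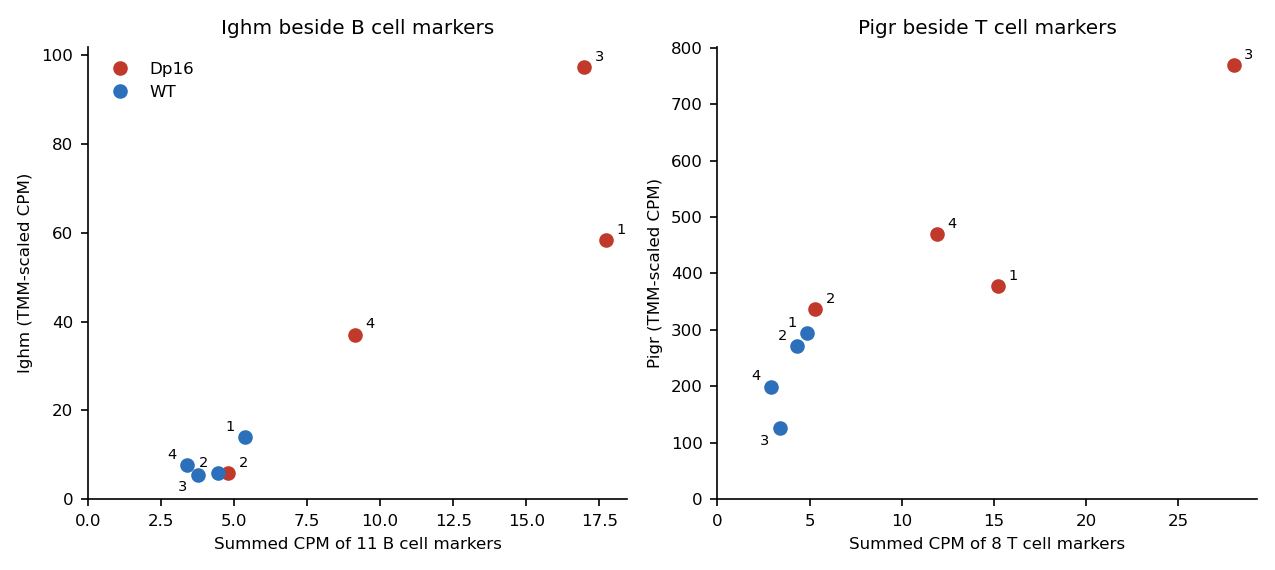
Ighm (TMM-scaled CPM) against the summed CPM of 11 B cell markers, and Pigr against that of 8 T cell markers, with the library number at each point and Dp16 and WT in separate colours. Dp16 replicate 3 has the most Ighm (97.3 CPM), Pigr (769 CPM) and T cell marker RNA (27.99 CPM), and Dp16 replicate 2 lies close to the WT libraries in both panels.

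The genes most like Jchain and Pigr across libraries were listed by Pearson's r of log2 CPM over the 8 libraries, among 11883 protein-coding genes outside the list. The libraries share genotype and scaling with one another, so r is a description. For Jchain they were Susd2 (r = 0.935), Prdm1 (0.928), Klrb1c (0.927), Irf4 (0.923) and Clic6 (0.920), the last of which lies in the duplicated segment. After the group means were removed, Klrb1c had r = 0.917 and Prdm1 r = 0.814. For Pigr they were Rbl1 (r = 0.968), Vrk2 (0.964), Chic1 (0.964), Fat4 (0.956) and Celf2 (0.955), and after the group means were removed Chic1 had r = 0.972. The lists for Jchain and Pigr had no gene in common.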

How the data were processed

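Total RNA of submandibular glands was made into 8 stranded libraries after depletion of ribosomal RNA, per the labels' protocols. The authors deposited whole-number read counts per Ensembl gene, not normalized, in 1 table per library. FastQC, STAR, HTSeq, DESeq2 and the build GRCm38 appear in the submitters' processing notes, without versions. Neither the annotation nor the use of strand in counting is given in the sources used here. Of each library's rows, 5 name no gene and hold 58.1% to 65.4% of the reads, 35.8% to 43.9% being reads with several alignments, and these rows were left out. This removes reads shared by near-identical immunoglobulin genes. Symbols, coordinates and exon lengths came from GENCODE M21 (54723 genes matched, 115 did not).

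Counts were fitted over all genes in R 4.3.3 with edgeR 4.0.16 (its default expression filter, TMM scaling, quasi-likelihood F-test, without covariates), with Benjamini-Hochberg adjustment over 19358 genes and calls at an adjusted p below 0.05, two-sided. The scripts were tested on simulated data. Levels are TMM-scaled CPM, divided by the union of exons in kilobases for shares, ratios and sums of constant genes (V gene and marker sums are plain CPM), with a prior count of 2 for log2 CPM. V gene evenness was tested by exact permutation of the libraries. The alternatives were DESeq2 1.42.0 (without the edgeR filter), limma-voom 3.58.1 with quality weights, other scalings and filters, the replicate number as a block and each library left out in turn. Shares per coding length were added after seeing the data.

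All members are named in full. Of each other list, the counts, the median and up to 3 genes with the smallest p are given where reported here. Some further genes were named after their values were seen (Xbp1, Derl3, Sdc1, Fkbp11, Ell2, Dcpp1, Ccl28, Cxcl13, Glycam1, Ccl19, Ifng, Il17a, Epcam, Krt19). The genes most like Jchain and Pigr are the 5 with the highest r for each. The members and all lists were chosen with earlier results of these data known.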

Additional observations from a re-analysis of the deposited data

Results flagged for a closer look

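A few values stood apart from the rest. Ighg3 in WT replicate 1 was 0.493 CPM, against 0.0198 to 0.0416 CPM in the other WT libraries, a gap larger than Dixon's 95% critical value allows for 4 values. These levels are 49 reads in WT replicate 1 and 2 to 4 reads in the other WT libraries. WT replicate 1 was also the WT library with the most Ighg2b, Ighg2c and Ighm. The Jchain ratio to Igha and Ighm was 0.375 in Dp16 replicate 3, against 0.452 to 0.467 in the other Dp16 libraries. In all, 44 groups of 4 libraries were examined this way, and chance alone marks about 1 group in 20.

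Reads overlapping no counted feature, which enter no comparison of genes, made up 19.8% ± 1.16 of all reads in Dp16 libraries and 14.98% ± 0.965 in WT libraries (SD, n = 4 each), with no overlap between the groups.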

How the results depend on the processing

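The number of genes called was 121 with the settings used and moved to 1996 with DESeq2, 396 with limma-voom, 223 with no filter and 776 with the replicate block, while leaving out each library in turn gave 0 to 446. Among the members, 1 was called with the settings used, 8 with DESeq2, 2 with limma-voom, 2 with no filter and 5 with the replicate block, and 0 to 3 with a library left out. There were none without WT replicate 2 or without Dp16 replicate 1, and 3 without Dp16 replicate 2 (Ighg1, Ighg2b and Ighm). The cause of these shifts was not tested. Of 150 fold changes of members under the alternatives none was reversed, 133 stayed on the same side of the threshold and 15 crossed it to be called. The titles number the libraries 1 to 4 in both genotypes. Deviations from the group means correlated weakly and positively between same-numbered libraries (r = 0.191, 0.129, 0.0777 and 0.105). For Dp16 replicates 1 and 4 the most similar WT library was the one of the same number, and for Dp16 replicates 2 and 3 it was not. The numbers were not read as pairs, and these values do not settle whether they mark pairs. The difference in the Jchain ratio, 0.02, became 0.0733 per kilobase of coding sequence. The 2 differences are not on the same scale, because the ratio itself grows with coding lengths. Jchain has 2517 exon bases and 477 coding bases, and Igha has 2668 and 1225. The difference in heavy V evenness, -5.61, ran from -10.4 to -1.59 with a library left out. The number of heavy V genes at 20002 reads, a count of genes and not an evenness, differed by 0.36 (exact permutation p = 0.714). That count has little room to differ, as 108 to 111 of the 113 heavy V genes had a read in each library. The difference in kappa V evenness, 2.42, ran from -1.12 (without Dp16 replicate 2) to 6.03 with a library left out. With 4 libraries a group, the spread of Ighm, Ighg2b and Ighg2c among Dp16 libraries limits what can be called.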
